A study of Mus musculus with 4 samples.

Results

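The keratins of the newborn epidermis were examined in whole skin of mice lacking loricrin. The 8 genes are the suprabasal keratins Krt1, Krt10, Krt2 and Krt77, the basal keratins Krt5, Krt14 and Krt15, and Krt80. They were chosen by gene symbol or gene identifier in the platform annotation, out of 13674 named genes on the arrays, and every probe set that names 1 of them alone was used. This gave 13 of 24833 tested probe sets. The arrays were hybridised with total RNA from skin taken on postnatal day 0 from FVB/N mice, either loricrin knockout or wildtype, with 2 arrays per genotype. Loricrin is the main cross-linked protein of the cornified envelope in the outermost epidermis, and neither the kind of knockout allele nor the number or pooling of animals is stated. Each genotype had 1 array on each of 2 array types with their own probe sets, and no comparison within an array type has a replicate. The arrays titled replicates are those of the second type, and nothing says whether they held RNA of other animals.

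Keratins are the intermediate filament proteins of epithelial cells. An acidic type I chain pairs with a basic type II chain, and the pairs assemble into filaments that are anchored at desmosomes between cells and at hemidesmosomes below the basal layer. Basal keratinocytes make Krt5 with Krt14, and on leaving the basal layer they switch to Krt1 with Krt10, whose filaments filaggrin later bundles in the cells that become the cornified layer.

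The genotype labels were checked against the arrays. Loricrin read 2013 in knockout skin and 41225 in wildtype skin on the brighter of its 2 probe sets on the first array type, and the log2 ratio was -4.36. Its other probe set there was below the detection floor in both arrays, and where the probes lie in relation to the deletion is not known, so this checks the labels only in so far as a signal was lost. The second type has no probe set named for loricrin. Xist read 857 in knockout skin and 24.7 in wildtype skin on the first type, and Kdm5d, from the Y chromosome, read 12.2 in knockout skin and 976 in wildtype skin on 1 probe set of the second, so sex and genotype cannot be told apart here. Whole skin also holds dermis and blood. The summed signal of 13 measured dermal fibroblast markers on the first type was 5602 in knockout skin and 12678 in wildtype skin. Of them 9 were at least 2-fold lower, where 1.22% of all probe sets were. Among the 9, Col3a1, Lum and Eln are bounds, since their knockout signals were below the floor. The rest of the 9 were Col1a1, Bgn, Col6a3, Twist2, Col6a2 and Col6a1, with log2 ratios between -3.17 and -1.67. The 2 brightest of the 13, Dcn and Col1a2, had log2 ratios of -0.05 and 0.007. The summed signal of 5 measured erythroid markers was 5532 in knockout skin and 21768 in wildtype skin, with 3 lower, Alas2 as a bound. None of these markers was measured on the second type. In whole tissue, fewer cells of a type and less RNA per cell cannot be told apart. The part of these marker differences, or of sex, in the keratin values was not tested.

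Of the 8 keratins, 6 could be measured on at least 1 array type, and their log2 ratios of knockout over wildtype lay between -0.51 and 0.25. Signals are MAS5 intensities as deposited, and a floor was set at 77.6 for first-type and 133 for second-type arrays, below which signals have no order. Of the 13 probe sets, 8 lay above the floor and stood for 6 genes, and the other 5 lay below it in both arrays. None of the 9 first-type probe sets passed the 2-fold rule, where 2.09% of all probe sets did (0.869% higher and 1.22% lower in knockout). None of the 4 second-type ones passed, against 3.32% of all (1.48% higher and 1.84% lower). With shares as small as these, a count of 0 among so few probe sets says nothing particular of the keratins. Among the 8 above the floor, the 2 with a negative log2 ratio of knockout over wildtype were those of Krt1 and Krt10, and the other 6 were positive. The plot of signals shows all 13.

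**Figure D1:**
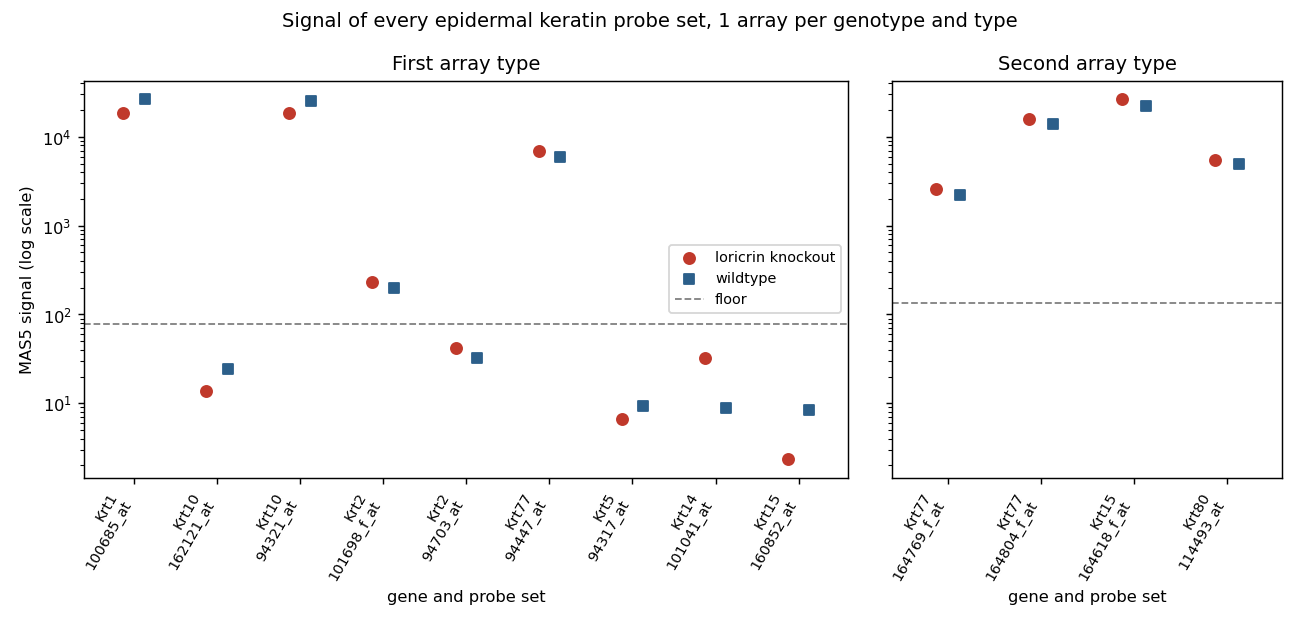
MAS5 signal on a log axis for every probe set of the 8 keratin genes on the first (left) and second (right) array type; red circles are the loricrin knockout array, blue squares the wildtype array and the dashed line the floor (77.6 and 133). Krt1 and Krt10 have the higher signal in wildtype, the other probe sets above the floor have it in knockout, and 5 probe sets, among them those of Krt5 and Krt14, lie below the floor.

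Krt1 and Krt10 form the main filament pair of the suprabasal layers. Krt1 read 18713 in knockout skin and 26637 in wildtype skin (probe set 100685_at, first type), a log2 ratio of -0.51, and Krt10 read 18479 in knockout skin and 25557 in wildtype skin (94321_at), a log2 ratio of -0.47. The knockout signals were thus 70.3% and 72.3% of the wildtype ones, and the log2 ratio of Krt1 minus that of Krt10 was -0.04. A second Krt10 probe set, 162121_at, read 13.7 in knockout skin and 24.4 in wildtype skin, below the floor in both. Neither partner has a probe set named for it on the second type, so these ratios were not repeated.

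Other suprabasal markers were read beside the pair. Of 10 measured on the first type, Krt1, Krt10, Krt2 and Krt77 included, 7 had a negative log2 ratio and 3 a positive one. The median of -0.49 lies between the values of Krt1 and Krt10 themselves, so it is no separate measure to set beside the pair. Only loricrin itself passed 2-fold, as lower, where 1.22% of all probe sets were. The envelope protein gene Ivl read 2153 in knockout skin and 4040 in wildtype skin, a log2 ratio of -0.91, and Krtdap, a gene of differentiating keratinocytes, had one of -0.58. The crosslinking enzyme gene Tgm3, at 370 in knockout skin and 245 in wildtype skin, had one of 0.60. The summed signal of the 10 was 90480 in knockout skin and 163681 in wildtype skin. It holds the deleted gene loricrin, at 2013 and 41225, and Krt1 and Krt10 themselves. The sum is therefore no separate measure of the layer either. On the second type 3 of 5 were negative, with sums of 104862 in knockout skin and 118064 in wildtype skin. The median of -0.17 there was the value of Sbsn, the brightest of the 5. The part of this layer's overall level in the values of Krt1 and Krt10 was not tested.

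The ratios of Krt1 and Krt10 lay close to the median of the brightest probe sets of their array type. Of the 7394 first-type probe sets with a mean signal above the floor, 9.75% had a log2 ratio as low as that of Krt1 and 11.4% one as low as that of Krt10, and the median was 0.014. Among the 100 brightest probe sets of that type, 96 had a negative log2 ratio and the median was -0.48. On the second type 64 of the 100 brightest were negative, with a median of -0.10. The part of signal strength in the values of Krt1 and Krt10 was not tested. After loess the log2 ratio was -0.18 for Krt1 and -0.14 for Krt10, and after quantile normalization it was 0.03 and 0.05. The genes with signals nearest to those of Krt1 over the 2 arrays were the dynein light chain gene Dynll1, Krt10 and the ribosomal protein gene Rpl7, at distances of 0.01, 0.06 and 0.07 on the log2 scale. Likeness was taken over the knockout and wildtype signals together, so it fixes the ratios of these genes near that of Krt1. Those nearest to Krt10 were Wfdc21, Krt1 and Dynll1, at distances of 0.05, 0.06 and 0.07.

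**Figure D2:**
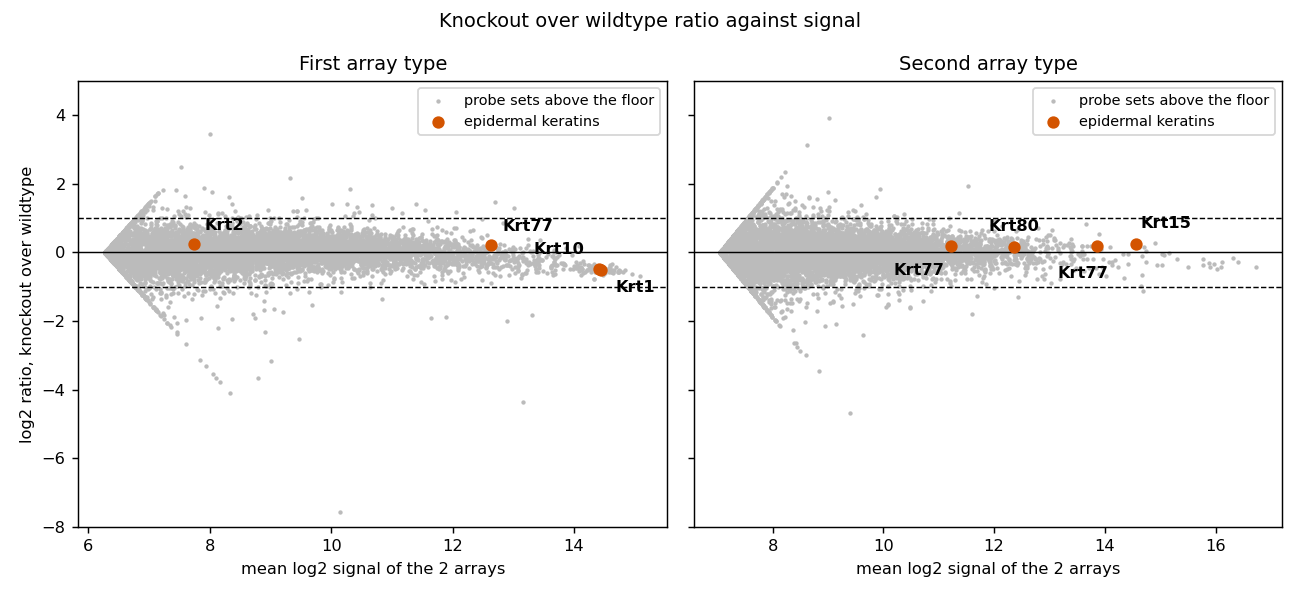
Log2 ratio of knockout over wildtype against the mean log2 signal of the 2 arrays, for probe sets above the floor in at least 1 array of the first (left) and second (right) type; orange points are the keratin probe sets and dashed lines mark 2-fold. Krt1 and Krt10 sit at -0.51 and -0.47 at the bright end of the first type, where the cloud lies below 0, and Krt77, Krt2, Krt15 and Krt80 lie between 0.15 and 0.25.

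Krt2 and Krt77 are the other suprabasal type II chains. Krt2, made in the uppermost living layers, read 233 in knockout skin and 196 in wildtype skin on probe set 101698_f_at, a log2 ratio of 0.25. Its other probe set, 94703_at, read 42.1 in knockout skin and 32.2 in wildtype skin, below the floor. Krt77, known in human skin from sweat gland ducts, read 6872 in knockout skin and 5933 in wildtype skin on the first type (94447_at). On the second type it read 15831 in knockout skin and 13847 in wildtype skin on 164804_f_at, and 2557 and 2237 on 164769_f_at. All 3 Krt77 probe sets had the larger signal in knockout, with log2 ratios of 0.21, 0.19 and 0.19.

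Krt77 is the 1 member above the floor on both array types, which allowed a fit over all 4 arrays with array type as a block. Across 1082 genes on both types, limma gave Krt77 a mean log2 ratio of 0.20 (SE 0.24, 95% interval -0.30 to 0.71, limma adjusted p = 0.864, positive on 2 of 2 types). By that test 1 gene passed, or 0.0924%, a count that ran between 0 and 18 under the alternatives other than spike-in scaling. Each gene has 1 residual degree of freedom, so the SE comes mostly from the disagreement between array types pooled over all genes, and the interval includes 0. The same pooled disagreement, an SD of 0.39 for a log2 ratio between array types, gives a scale for the members measured once. Krt1 and Krt10 lay 1.30 and 1.20 such SDs from 0, and each of the other 6 probe sets less than 1. These distances are from 0, while the median of the 100 brightest first-type probe sets was -0.48. The SD is pooled over genes of all signal strengths. Over the 1082 genes the ratios of the 2 types had a Pearson correlation of 0.18.

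The suprabasal keratins were also set against each other within the first array type. The log2 ratio of Krt77 exceeded that of Krt1 by 0.72 and that of Krt10 by 0.68, and Krt2 exceeded them by 0.76 and 0.71. These differences are the same under any scaling by 1 factor per array. After loess they were 0.53 and 0.50 for Krt77 and 0.44 and 0.40 for Krt2, and after quantile normalization 0.30 and 0.28 for Krt77 and 0.25 and 0.24 for Krt2. With 1 array per genotype they have no test, so it is not shown that the ratios differ. In the RefSeq gene order (GRCm38.p6) Krt2, Krt1 and Krt77 are consecutive protein-coding genes on chromosome 15, while Krt10 lies in the type I cluster on chromosome 11.

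RefSeq promoter sequences were at hand for 5 of the 8 genes (build GRCm38.p6). Those of Krt10, Krt2 and Krt77 are shown because they are the suprabasal members with both a sequence and a measured ratio. Each is the 250 bases before the annotated start, read 5′ to 3′ on the gene's minus strand, from chr11:99389365-99389614, chr15:101818170-101818419 and chr15:101869706-101869955. Capitals mark matches to TATANA on either strand, the core of the box that positions transcription start; overlapping matches run together.
Krt10: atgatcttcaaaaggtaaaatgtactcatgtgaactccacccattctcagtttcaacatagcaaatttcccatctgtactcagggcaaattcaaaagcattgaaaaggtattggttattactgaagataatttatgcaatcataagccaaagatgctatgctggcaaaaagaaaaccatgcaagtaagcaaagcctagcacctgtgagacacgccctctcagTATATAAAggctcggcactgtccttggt
Krt2: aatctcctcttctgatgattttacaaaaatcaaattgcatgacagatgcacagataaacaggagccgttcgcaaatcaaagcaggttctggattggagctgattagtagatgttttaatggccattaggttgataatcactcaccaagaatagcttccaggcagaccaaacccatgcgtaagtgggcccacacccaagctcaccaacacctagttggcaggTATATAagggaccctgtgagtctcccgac
Krt77: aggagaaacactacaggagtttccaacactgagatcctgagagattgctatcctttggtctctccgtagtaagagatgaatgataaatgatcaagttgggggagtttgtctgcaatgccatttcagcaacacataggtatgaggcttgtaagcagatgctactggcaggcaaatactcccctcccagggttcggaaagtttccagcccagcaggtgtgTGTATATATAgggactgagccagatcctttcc
All 3 hold a TATANA match whose first base lies close to the start, at 26 bases before it in Krt10, 29 in Krt2 and 28 in Krt77, and 22.6% of 32817 promoters of that length hold such a match anywhere. The windows of the basal genes Krt5 and Krt14 hold none, which says only that these letters are not there. The AP-1 motif TGANTCA, on either strand, is in none of the 5 windows and in 6.75% of all promoters. The letters CACCC, on either strand and apart from any TATANA match here, occur once in Krt10, once in Krt2, once in Krt14, 3 times in Krt5 and not in Krt77, and in 52.0% of all promoters. A match here is a description of these letters, not a bound site.

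The basal keratins were measured through Krt15 alone. Krt15, a type I chain of basal cells and of the hair follicle bulge, read 26582 in knockout skin and 22304 in wildtype skin on the second type (164618_f_at), a log2 ratio of 0.25. Its probe set on the first type, 160852_at, read 2.33 in knockout skin and 8.42 in wildtype skin, below the floor. Krt5 read 6.70 in knockout skin and 9.43 in wildtype skin (94317_at), and Krt14 32.0 in knockout skin and 8.83 in wildtype skin (101041_at), both below the floor, so no ratio is given for the main basal pair. Krt5 and Krt14, the defining basal keratins, therefore do not mark the basal layer on these arrays, although other basal genes were detected. Whether their probe sets detect the transcripts was not tested, so these signals do not show low expression. Of 11 basal layer markers with a probe set on the first type, those 3 keratins included, 8 had a mean signal above the floor. At least 2-fold higher in knockout were 4, where 0.869% of all probe sets were. They are Itga6, Col17a1 and Lamb3, which make parts of the junction with the dermis, and the transcription factor gene Trp63. All 8 above the floor had a positive log2 ratio, with a median of 0.92. Those that did not pass were Lama3 at 0.77, Itga3 at 0.64, Itgb1, the brightest of the list, at 0.18 and Itgb4 at 0.04. The summed signal of the 11 was 9780 in knockout skin and 6087 in wildtype skin, while Krt15 on the second type did not pass 2-fold. The genes nearest to Krt15 over the 2 arrays of the second type were Krt79, Klk5 and Kprp, at distances of 0.09, 0.20 and 0.29, chosen in the same way.

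Krt80, a type II keratin of differentiated epithelial cells, was measured on the second type only. It read 5544 in knockout skin and 5008 in wildtype skin (114493_at), a log2 ratio of 0.15, the smallest in size among the 8 probe sets above the floor. The probe sets of Krt80, Krt1 and Krt10 and the first-type one of Krt77 carry no suffix for shared sequence. Those of Krt2 and Krt15 and both second-type ones of Krt77 carry the suffix for a sequence family, so other family members may add to their signals.

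Taken per gene, the median log2 ratio of the members was -0.13 over 4 genes on the first type and 0.19 over 3 on the second, against 0.014 and 0.0038 over all probe sets with a mean signal above the floor. Over the scalings run, the sign turned for Krt1 and Krt10 only. Scaling on 9 bacterial spike-in controls, whose mean log2 ratios were -0.69 and -0.65, moved the median of all probe sets to 0.69 and 0.64. Under it Krt1 stood at 0.18 and Krt10 at 0.22, below that median, and the other probe sets between 0.80 and 0.93, above it. No member reached 2-fold under any scaling.

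**Figure D3:**
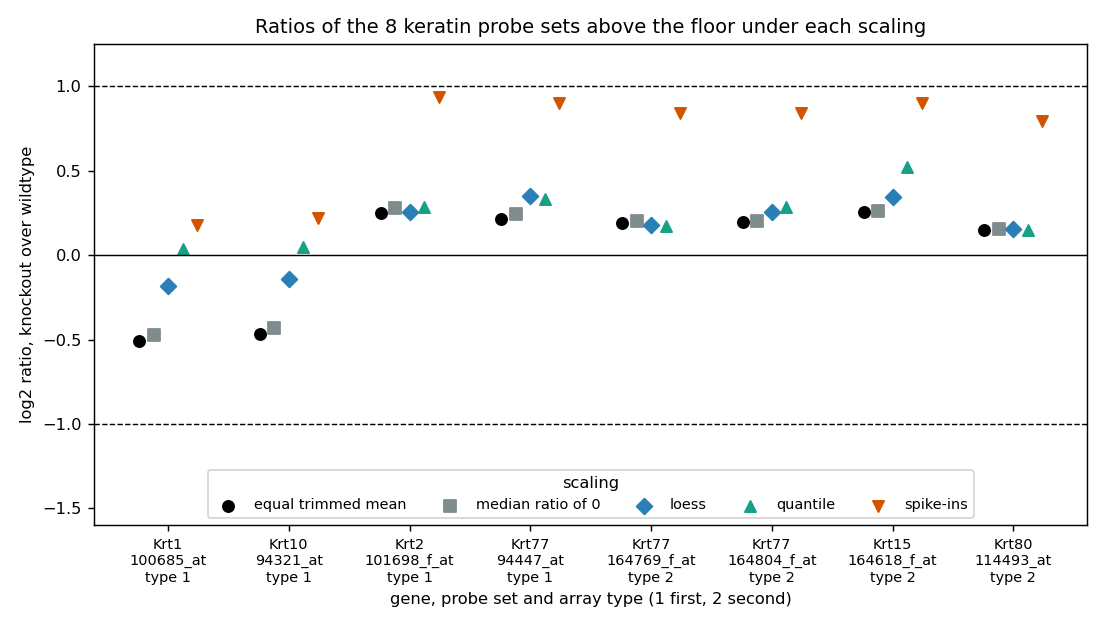
Log2 ratio of knockout over wildtype for the 8 keratin probe sets above the floor under 5 scalings of the arrays (symbols); dashed lines mark 2-fold. Krt1 and Krt10 run between -0.51 and 0.22, crossing 0 under quantile normalization and the spike-in scaling, while the other 6 probe sets are above 0 under each and below 2-fold.

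Other keratin genes were described in the same way. Of 46 listed, 26 had a probe set on the first type. At least 2-fold higher was 1, where 0.869% of all probe sets were, and at least 2-fold lower were 2, where 1.22% were. The other 23 did not pass, and those below the floor in both arrays could not. The median log2 ratio was -0.17 over the 22 with a mean signal above the floor. Krt86, a hair cortex keratin, read 519 in knockout skin and 258 in wildtype skin, a log2 ratio of 1.01. Krt16, a keratin of stressed and thickened epidermis, read 763 in knockout skin and 1712 in wildtype skin, a log2 ratio of -1.17, but on the second type it read 240 and 169, a log2 ratio of 0.51. The hair keratin Krt35 read 101 in knockout skin and 210 in wildtype skin on 1 probe set, a log2 ratio of -1.06, and 134 and 137 on the other, a log2 ratio of -0.03. The 2 brightest were Krt17, a hair follicle and wound keratin, which read 5465 in knockout skin and 3334 in wildtype skin, a log2 ratio of 0.71, and the corneal keratin Krt12, with 0.36. The other Krt17 probe sets disagreed, with log2 ratios of 0.66 and, on a dim one that read 125 in knockout skin and 163 in wildtype skin, -0.39. On the second type none of the 11 with a probe set passed 2-fold, where 3.32% of all probe sets did. The median of the 8 with a mean signal above the floor was 0.0036. Krt79, a keratin of the hair canal in mice, had a log2 ratio of 0.15 and Krt23 one of -0.19, the 2 brightest there.

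**Figure D4:**
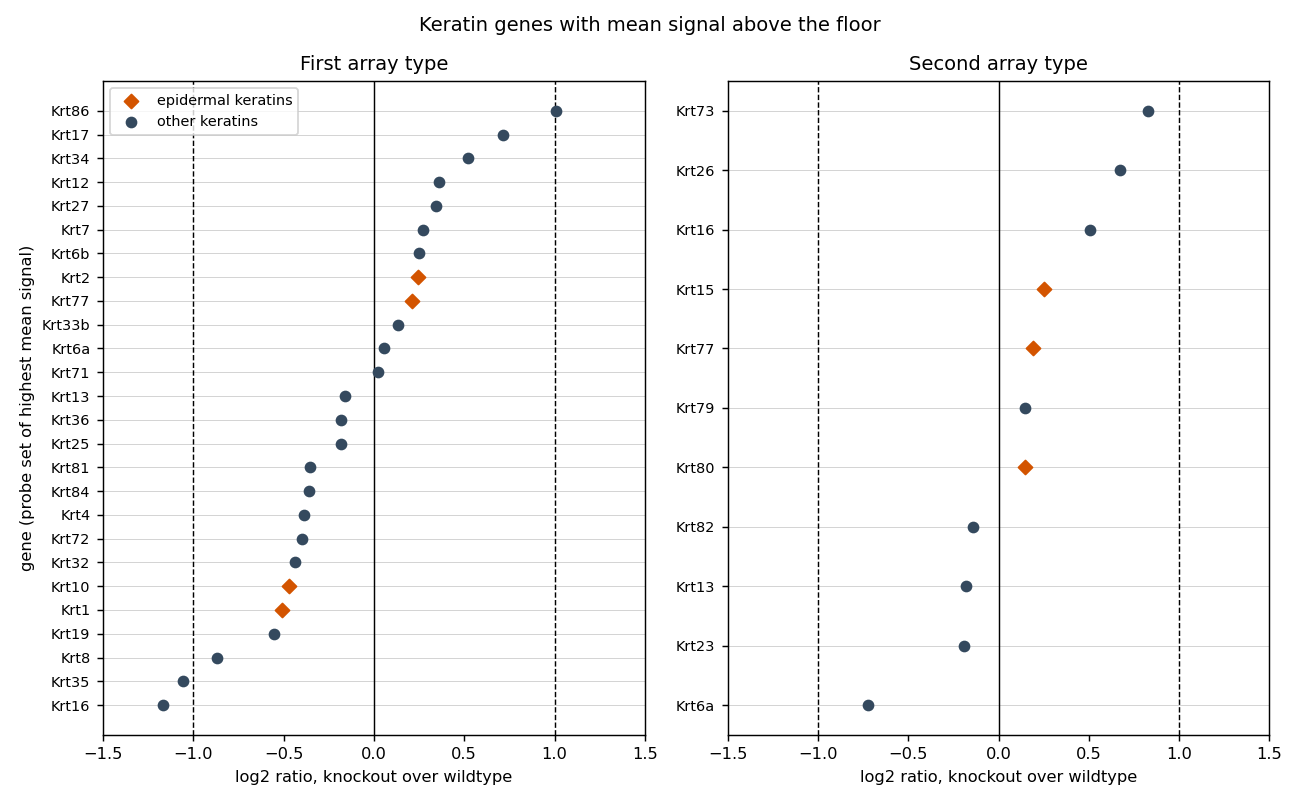
Log2 ratio of knockout over wildtype for each keratin gene with a mean signal above the floor, 1 probe set per gene, on the first (left) and second (right) array type; orange diamonds are the 8 epidermal keratins as far as measured, dark circles other keratins, dashed lines 2-fold. The members lie between -0.51 and 0.25, inside the range of -1.17 to 1.01 of the other keratins on the first type; the value of Krt6a on the second type is a bound, since its knockout signal was below the floor.

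Of 28 genes listed as keratin filament partners, only some of which anchor or bundle the filaments, 20 had a probe set on the first type. Of these, 2 were at least 2-fold higher, where 0.869% of all probe sets were, and none lower, where 1.22% were. The other 18 did not pass, and those below the floor in both arrays could not. The median log2 ratio was -0.14 over the genes with a mean signal above the floor. The 2 were Itga6 and Col17a1, with log2 ratios of 1.62 and 1.42, the same probe sets as among the basal layer markers. Itga6 read 560 in knockout skin and 183 in wildtype skin, and Col17a1 1702 and 635. Other hemidesmosome genes of the list did not pass: Itgb4 had 0.04 and Plec 0.16 on the first type, and Dst 0.67 on the second. Filaggrin (Flg), which bundles Krt1 and Krt10 filaments, read 17219 in knockout skin and 22621 in wildtype skin, a log2 ratio of -0.39, and the adaptor protein gene Sfn had one of -0.27. On the second type none of 10 passed 2-fold, where 3.32% of all probe sets did, and the median was -0.10. The brightest were Trim29, with -0.05, and the suprabasal desmosomal cadherin Dsc1, with -0.53, which on the first type read 2142 in knockout skin and 3851 in wildtype skin, a log2 ratio of -0.85.

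Transcription factors and Notch receptors that act on epidermal keratin genes or keratinocyte differentiation gave 1 gene past 2-fold. Of 36 listed, 30 had a probe set on the first type. Trp63, which is needed for a stratified epidermis and acts on Krt5 and Krt14, read 1906 in knockout skin and 913 in wildtype skin. Its log2 ratio was 1.06, and 0.869% of all probe sets were at least 2-fold higher. The other 29 did not pass, and those below the floor in both arrays could not. The list median was 0.16 over the 27 with a mean signal above the floor. The brightest, Hopx and Cebpa, had log2 ratios of -0.27 and -0.23. On the second type none of 12 passed, where 3.32% of all probe sets did. There 10 of the 11 with a mean signal above the floor were positive, with a median of 0.32, and the brightest were the AP-1 gene Fosl2, at 0.55, and Sp1, at 0.22.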

How the data were processed

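The authors' deposited array intensity values were used, 1 signal per probe set on a linear scale, summarised by MAS5 according to the submitters' processing notes, which give neither its settings nor any filter. The 4 columns had 2% trimmed means between 500.2 and 500.4. Within a type both arrays were scaled to the same trimmed mean, signals below the mean of their 40th percentiles were set to that floor, and log2 ratios of knockout over wildtype were taken without the 66 control probe sets of a type. Symbols were matched by gene identifier to a RefSeq table (GRCm38.p6), which held 10817 of 10833 and 10550 of 10581 single-gene probe sets. A gene took its probe set of highest mean signal. The number of arrays limits the precision: within a type there is no test, and "higher" and "lower" mean at least 2-fold. limma 3.58.1 (R 4.3.3), with Benjamini-Hochberg adjustment and array type as a block, used genes whose mean signal was above the floor on both types. Because replicate arrays are not said to be separate animals, its p-values may measure technical spread only. The steps were also run on simulated data with noise drawn independently for each array, which does not show how they perform on these arrays.

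Every probe set of the members was named. Of each other list described here, genes past 2-fold and the 2 brightest per type were named. For Krt1, Krt10 and Krt15 the 3 genes nearest in log2 signal were named. Lists of skeletal muscle, hair follicle, adipocyte, immune cell and endothelial markers were also run and are not described. The members, lists and rules were chosen with earlier results of these data known. The promoter motifs, the 100 brightest probe sets and the SD and correlation between array types were chosen after the values were seen. So were the suprabasal markers Ivl, Krtdap and Tgm3 and the genes Itga3, Itgb4, Lama3, Plec and Dst. Python 3.11.15, statsmodels 0.14.6 (loess span 0.4) and matplotlib 3.10.9 were used.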

Additional observations from a re-analysis of the deposited data

How the results depend on the processing

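No member passed the rule of size on the second array type under any alternative run, nor on the first at 1.5-fold or 3-fold or under any scaling or other floor. With no floor and a pseudocount of 1, 2 did on the first, Krt14 (log2 ratio 1.75) and Krt15, with opposite signs and both from signals below the floor. Krt1 and Krt10 kept a negative ratio except under quantile normalization and spike-in scaling. Leaving out any 1 array left Krt77 with the ratio of a single type and no test, between 0.19 and 0.21. Krt77 could not be fitted without suffixed probe sets.

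Array type was the pairing of replicate arrays: without this replicate block Krt77 had the same ratio of 0.20 with an adjusted limma p of 1.00, and the 1 gene that passed with the block no longer did. Over its alternatives that p lay between 0.0264 and 1.00; it passed only under spike-in scaling, with a log2 ratio of 0.87. That scaling adds nearly the same amount to every ratio and made 597 of 1075 genes pass. Under the other alternatives 1 gene passed with the values as deposited, 8 with loess, 6 with the floor at the 60th percentile, 7 without suffixed probe sets, 18 with the median over probe sets and 0 in the rest.

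Spike-in scaling moved the members' medians to 0.56 and 0.84 for the 2 types, those of the other keratins to 0.52 and 0.65, of the filament partners to 0.48 and 0.55 and of the regulators to 0.82 and 0.97. It gave 5 and 3 other keratins past 2-fold, 2 partners on the second type, and 7 and 4 regulators. The other keratins past 2-fold on the first type were 1 under quantile normalization and 1 with the floor value as a pseudocount; on the second they were 1 under a floor at the 20th percentile and 3 with a pseudocount of 1. A 1.5-fold rule gave 5 and 3 other keratins, 4 and 4 partners and 5 and 1 regulators. A 3-fold rule gave 0, 1 and 0 on the first type.

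Among all probe sets 259 of the first type passed 2-fold, and 412 of the second. The counts were 1134 and 1551 under a floor at the 20th percentile, 80 and 96 under one at the 60th, 2096 and 2607 with a pseudocount of 1, and 170 and 274 with the floor value added. They were 1093 and 1621 past 1.5-fold, 64 and 82 past 3-fold, and 1483 and 1475 under spike-in scaling, where 96.6% and 95.9% were higher in place of 41.7% and 44.7%. The cause of these movements was not tested. Signal near or below the floor limits what can be said of Krt5, Krt14 and Krt2, whose probe set lay below a floor at the 60th percentile.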
